A study of Mus musculus with 17 samples.

Results

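Fcer1a, Ms4a2, Kit, Cpa3, Mcpt8 and Hdc are genes by which mast cells and basophils are usually recognised. They were followed here as 6 of the 22180 genes measured in sorted mouse eosinophils, and were taken by gene symbol from the platform annotation, where each symbol belonged to 1 probe set. All mice carried the CC10-IL13 transgene (CC10-IL13Tg), including those fed no doxycycline (Dox), and were either Pirb-/- (knockout, KO) or Pirb+/+ littermates (wildtype, WT). Dox in the food switches on interleukin-13 (IL-13), which the transgene places under the promoter of CC10, a protein of airway club cells; Pirb encodes an inhibitory receptor of myeloid cells. Male and female mice of 6 to 8 weeks were used, and the Dox groups were fed it for 2 weeks. The groups were esophagus with Dox (3 KO and 3 WT arrays), bone marrow with Dox (3 KO and 3 WT) and bone marrow without Dox (3 KO and 2 WT). Cells from both tissues were sorted as CD45+, SiglecF+ and CCR3+, a gate that uses neither Kit nor the IgE receptor. The esophagus was digested with collagenase and the marrow was not, so tissue and preparation cannot be told apart. The labels do not say whether replicates were separate animals or pools, and p-values therefore measure only the spread between these samples.

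Mast cells and basophils store histamine and proteases in granules and bind IgE through the receptor Fc epsilon RI. That receptor is built from an alpha chain that holds IgE (Fcer1a), a beta chain that amplifies the signal (Ms4a2) and a pair of gamma chains (Fcer1g). Kit is the receptor for stem cell factor and is carried by mast cells and by early blood progenitors. Cpa3, carboxypeptidase A3, is a granule protease of mast cells and of basophils. Mcpt8 is a granule protease of mouse basophils, and Hdc makes histamine from histidine. In marrow several of these genes are also on in progenitors of the granulocyte lineages. In RNA from a sorted pool, fewer cells of a type and less RNA per cell cannot be told apart.

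Promoter sequences from RefSeq (GRCm38.p6) were found for all 6 genes. The 250 bases before the start of 3 genes that were lower in the esophagus and of Hdc, which was not, are shown because GATA factors are known regulators of mast cell and basophil genes. Each runs 5′ to 3′ towards the gene, and capitals mark a GATA motif, searched as AGATAA or AGATAG or TGATAA or TGATAG on both strands. The windows are chr3:20242182-20242431 (minus strand) for Cpa3, chr19:11623720-11623969 (minus strand) for Ms4a2, chr14:56085198-56085447 (minus strand) for Mcpt8 and chr2:126618679-126618928 (minus strand) for Hdc. Each start is that of the promoter sequence and need not be the outer end of the gene. The windows of Mcpt8 and Hdc lie inside the annotated gene spans, chr14:56082163-56085499 and chr2:126593659-126624025. Those of Cpa3 and Ms4a2 reach into spans that end at 20242209 and 11623790.
Cpa3: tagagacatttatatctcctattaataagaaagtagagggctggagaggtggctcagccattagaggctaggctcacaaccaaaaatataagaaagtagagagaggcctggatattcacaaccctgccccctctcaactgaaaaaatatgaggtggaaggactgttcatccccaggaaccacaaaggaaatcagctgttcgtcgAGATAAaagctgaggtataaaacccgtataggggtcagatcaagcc
Ms4a2: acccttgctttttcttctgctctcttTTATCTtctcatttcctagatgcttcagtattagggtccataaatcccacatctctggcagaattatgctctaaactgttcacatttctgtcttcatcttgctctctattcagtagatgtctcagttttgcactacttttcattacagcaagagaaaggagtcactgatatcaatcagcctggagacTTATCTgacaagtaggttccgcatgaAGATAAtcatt
Mcpt8: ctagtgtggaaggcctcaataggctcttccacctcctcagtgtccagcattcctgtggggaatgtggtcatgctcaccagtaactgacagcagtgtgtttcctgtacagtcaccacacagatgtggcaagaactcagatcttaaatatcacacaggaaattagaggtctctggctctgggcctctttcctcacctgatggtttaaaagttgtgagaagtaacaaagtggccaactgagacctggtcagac
Hdc: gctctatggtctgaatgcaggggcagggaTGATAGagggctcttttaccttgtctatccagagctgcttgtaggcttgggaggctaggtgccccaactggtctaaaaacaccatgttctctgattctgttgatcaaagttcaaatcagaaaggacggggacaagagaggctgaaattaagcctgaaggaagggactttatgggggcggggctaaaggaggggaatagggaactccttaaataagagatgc
Cpa3 held 1 match, 46 to 41 bases before its start. Ms4a2 held 3, at 224 to 219, 37 to 32 and 11 to 6 bases before it. Hdc held 1, at 221 to 216 bases. Fcer1a, not printed, held 1, at 92 to 87 bases. Neither start of Kit held the letters in its window, nor did Mcpt8. Of 32851 such promoters, 26.5% held the motif. Of the 6 genes only Fcer1a held an E-box of the form CACGTG or CATGTG (either strand), which 17.6% of promoters held. The match or its lack is a description of these letters and was not related to the expression values.

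Each value below says on a log2 scale how far an array lay above or below the middle of all arrays for that probe set, as deposited; the log base is not stated and is taken as 2. A value near 0 thus means a typical array and not a low level, levels cannot be compared between genes, and whether a low value lies at the arrays' background is unknown here. Replicate 3 of the KO marrow without Dox stood apart. Over probe sets its SD was 0.811, while the 10 other marrow arrays had SDs of 0.25 to 0.296 and the esophageal ones 0.504 to 0.592. Its mean correlation was -0.03 with its 2 group mates and 0.38 with WT esophagus, across genes. Because 1 estimate of the spread serves every group, this array widens the error of every gene on which it differs, and results that rest on it are given with and without it.

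With Dox, 4 of the 6 genes were lower in esophageal than in marrow eosinophils, and they were so in KO as well as in WT. Mcpt8 and Cpa3 had differences of about the same size, larger than those of Kit and Ms4a2. For these 4 genes every esophageal array lay below every Dox marrow array. The share of all genes that lay apart in this way is not given here. Fcer1a and Hdc did not pass in either genotype. Over all genes, 6.04% passed as lower in the KO esophagus and 7.06% in the WT esophagus, while 4.5% and 8.11% passed as higher. The median difference over all genes was 0.06 in KO and 0.136 in WT, against a median of -1.85 in KO and -2.08 in WT over the 6. The KO and WT comparisons use different arrays and share only the estimate of spread.

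Fcer1a, the IgE-binding chain, varied little. In the KO esophagus it was -0.15, -0.16 and -0.12, against 0.01, 0.09 and -0.13 in KO marrow with Dox. In the WT esophagus it was -0.16, -0.01 and -0.06, against 0.34, 0.08 and 0.45 in WT marrow with Dox. The KO arrays of both tissues overlapped, and the 3 WT esophageal arrays lay just below the 3 WT marrow arrays. The difference was -0.13 ± 0.16 (SE) in KO (95% interval -0.48 to 0.21, adjusted p = 0.678) and -0.37 ± 0.16 in WT (-0.71 to -0.02, adjusted p = 0.121). Without Dox it was 0.56, 0.27 and -0.02 in KO marrow and -0.06 and 0.53 in WT marrow.

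Ms4a2, the signal-amplifying beta chain, was lower in the esophagus. It was -1.21, -1.17 and -1.23 in the KO esophagus, against 0.31, 0.44 and 0.91 in KO marrow with Dox. It was -1.09, -1.04 and -1.15 in the WT esophagus, against 0.36, 0.89 and 1.64 in WT marrow with Dox. The esophageal arrays were close together while the marrow arrays spread widely, and the tissues did not overlap. The gene fell by 1.76 ± 0.38 in KO (3.40-fold, adjusted p = 0.00902) and fell by 2.05 ± 0.38 in WT (4.15-fold, adjusted p = 0.00455). With quantile normalization of the arrays the Ms4a2 difference shrank to -1.57 in KO (adjusted p = 0.0371) and -1.85 in WT (adjusted p = 0.0215). Marrow without Dox gave -0.18, 1.00 and -0.86 in KO and 0.12 and 0.05 in WT, so the outlying array, at -0.86, was the lowest of the marrow but still above every esophageal array.

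Kit, the stem cell factor receptor, behaved likewise. It was -1.89, -1.42 and -1.11 in the KO esophagus, against 0.62, 0.50 and 0.30 in KO marrow with Dox. In WT it was -1.62, -1.59 and -1.59 in the esophagus, against 1.01, 0.42 and 0.09 in marrow with Dox. No esophageal array reached any Dox marrow array. Kit fell by 1.94 ± 0.29 in KO (3.84-fold, adjusted p = 0.000854) and fell by 2.11 ± 0.29 in WT (4.31-fold, adjusted p = 0.000708). With quantile normalization of the arrays the Kit difference shrank to -1.62 in KO and -1.52 in WT. Without Dox it was 0.09, -0.09 and -1.07 in KO marrow and 0.49 and 0.13 in WT marrow, and the outlying array, at -1.07, stood just above the highest esophageal value.

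**Figure D1:**
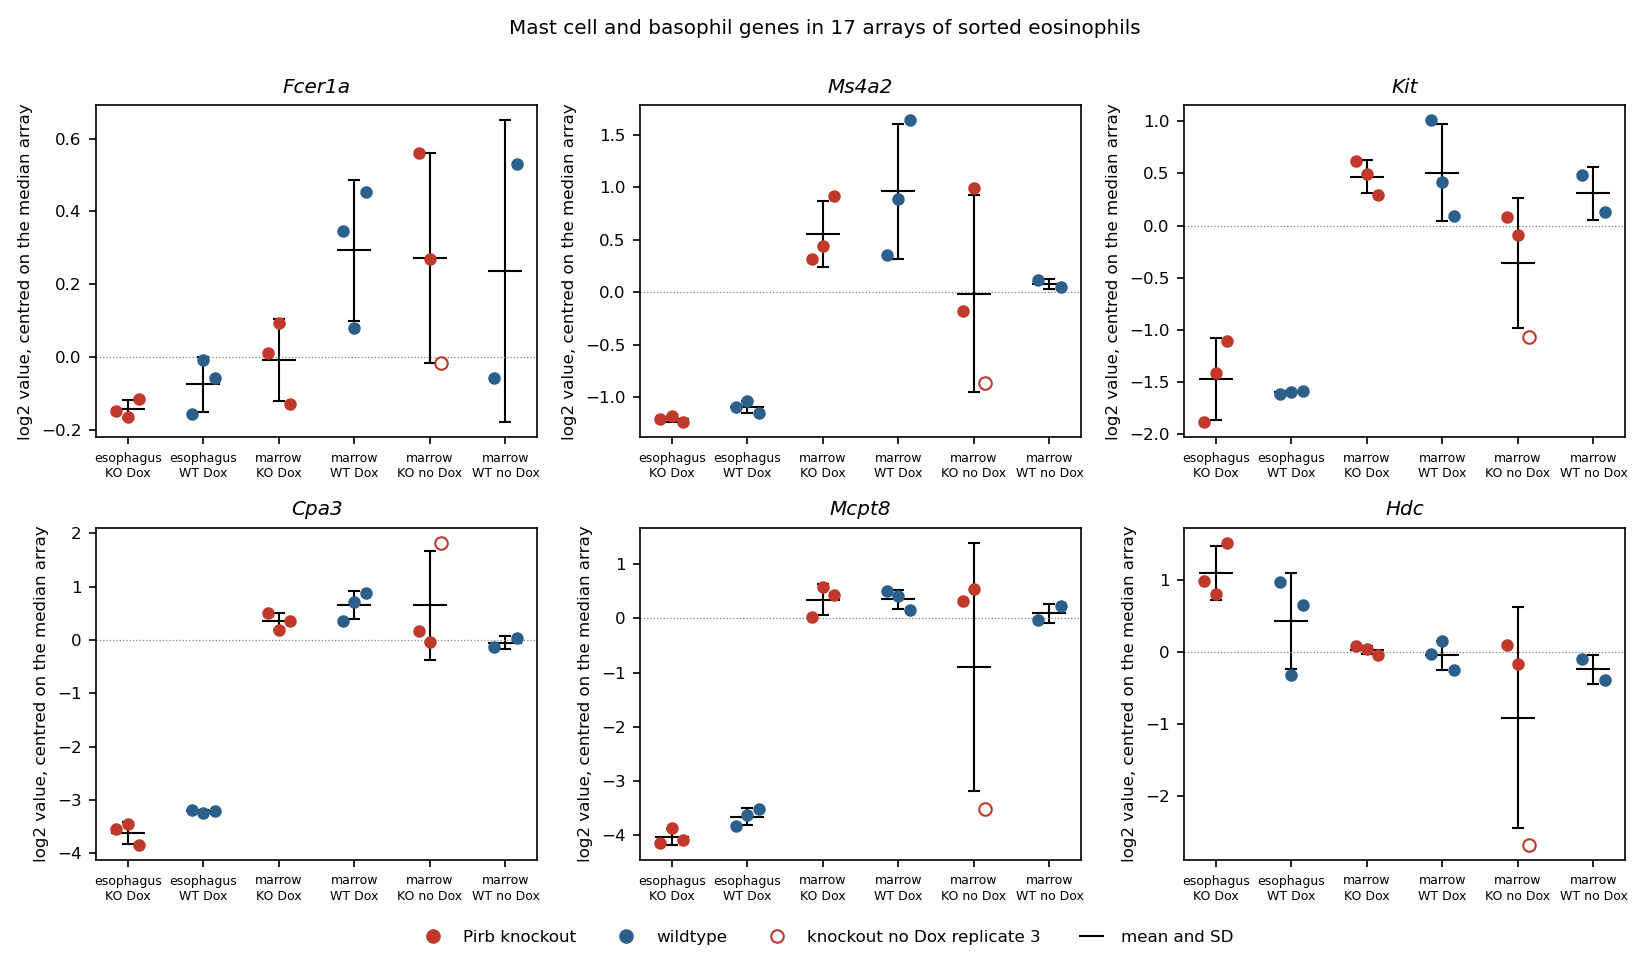
Centred log2 value (y axis, a scale of its own for each gene) of the 6 genes in 17 arrays, by group (x axis), with KO left of WT; points are arrays, bars are mean and SD, and the open point is the KO array without Dox that stood apart. Ms4a2, Kit, Cpa3 and Mcpt8 show 6 esophageal arrays below all 6 Dox marrow arrays, while Fcer1a and Hdc overlap.

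Cpa3, the carboxypeptidase of the granules, was lower in the esophagus too. It was -3.55, -3.45 and -3.84 in the KO esophagus, against 0.51, 0.19 and 0.36 in KO marrow with Dox. It was -3.19, -3.25 and -3.20 in the WT esophagus, against 0.36, 0.71 and 0.88 in WT marrow with Dox. The gap between the tissues was many times the spread within any of these groups. Cpa3 fell by 3.97 ± 0.35 in KO (15.7-fold, adjusted p = 1.37e-05) and fell by 3.87 ± 0.35 in WT (14.6-fold, adjusted p = 2.33e-05). Among the 22180 genes it ranked 18 from the lowest difference in KO and 25 in WT. With quantile normalization of the arrays its difference shrank to -2.69 in KO (adjusted p = 0.000509) and -2.60 in WT (adjusted p = 0.000943). Marrow without Dox held 0.17, -0.04 and 1.82 in KO and -0.13 and 0.04 in WT. The value of 1.82, the highest of all 17, belongs to the outlying array.

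Mcpt8, the basophil protease, was lower in the esophagus. It was -4.13, -3.86 and -4.09 in the KO esophagus, against 0.03, 0.58 and 0.43 in KO marrow with Dox. It was -3.82, -3.63 and -3.51 in the WT esophagus, against 0.50, 0.41 and 0.16 in WT marrow with Dox. Again the tissues lay wholly apart. Mcpt8 fell by 4.37 ± 0.74 in KO (20.7-fold, adjusted p = 0.00198), rank 9 of 22180 from the lowest, and fell by 4.01 ± 0.74 in WT (16.1-fold, adjusted p = 0.00445), rank 17. With quantile normalization of the arrays the difference shrank to -2.93 in KO (adjusted p = 3e-04) and -2.45 in WT (adjusted p = 0.00148). Without Dox it was 0.31, 0.54 and -3.52 in KO marrow and -0.03 and 0.22 in WT marrow. The outlying array, at -3.52, fell inside the esophageal range. The SE of the tissue differences was 0.15 without that array, against 0.74 with it.

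Hdc, the histamine-forming enzyme, had higher means in the esophagus, differences that did not pass. It was 0.97, 0.79 and 1.51 in the KO esophagus, against 0.07, 0.03 and -0.04 in KO marrow with Dox. It was 0.96, -0.33 and 0.65 in the WT esophagus, against -0.03, 0.15 and -0.26 in WT marrow with Dox. The 3 KO esophageal arrays were all above the KO marrow arrays, whereas 1 WT esophageal array lay below the WT marrow. The difference was 1.07 ± 0.56 in KO (95% interval -0.13 to 2.27, adjusted p = 0.278) and 0.48 ± 0.56 in WT (-0.72 to 1.68, adjusted p = 0.526). In KO it passed without the outlying array (1.07, adjusted p = 0.0184), with array weights (1.02, adjusted p = 0.00409) and with only the compared groups in the fit (1.07, adjusted p = 0.0122). Without Dox, Hdc was 0.10, -0.16 and -2.68 in KO marrow and -0.10 and -0.39 in WT marrow, and the -2.68 of the outlying array was the lowest of all 17.

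**Figure D2:**
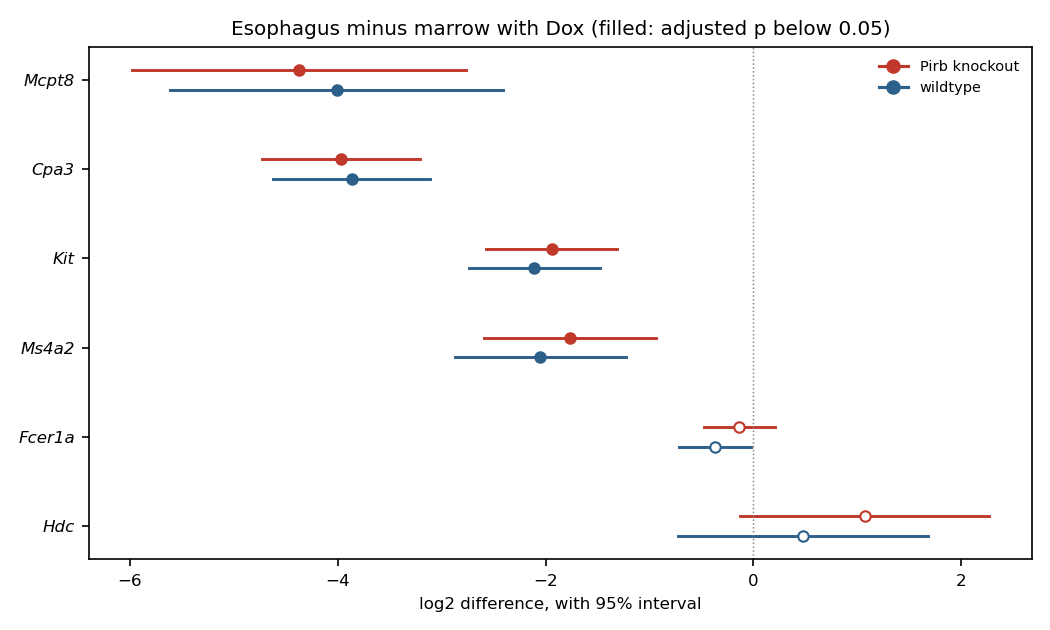
Difference between esophagus and marrow with Dox (x axis, log2, esophagus minus marrow, with 95% interval) for each gene (y axis), KO above WT; filled points passed at an adjusted p below 0.05. Mcpt8, Cpa3, Kit and Ms4a2 lie left of 0 with their whole interval in both genotypes, and Fcer1a and Hdc are open.

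The order of the group means placed both esophageal groups lowest for the 4 genes that passed. For Ms4a2, Cpa3 and Mcpt8 the KO esophagus was lowest and the WT esophagus next, and for Kit the WT esophagus was lowest. Neighbouring groups in the order did not overlap between the esophagus and the lowest marrow group for Ms4a2, Kit and Cpa3. For Mcpt8 they overlapped through the outlying array. The share of all genes without such overlap is not given here, so its lack cannot be called unusual. All neighbouring groups of Fcer1a overlapped, and so did those of Hdc, which ran from KO marrow without Dox at the bottom to the KO esophagus at the top.

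KO and WT were compared to see what loss of Pirb changes in eosinophils. None of the 6 genes passed for KO against WT in any of the 3 settings. Over all genes, 0.347% passed in the esophagus with Dox, 0% in marrow with Dox and 0% in marrow without Dox, so a count of 0 in 6 genes is near the background in each. At an unadjusted p below 0.05, 3251, 407 and 1809 genes were called in these settings, and none of the 6 was among them.

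In the esophagus the KO minus WT differences ran from -0.40 ± 0.35 for Cpa3 (95% interval -1.16 to 0.36, adjusted p = 0.561) to 0.67 ± 0.56 for Hdc (-0.53 to 1.86, adjusted p = 0.547). The 3 KO arrays of Cpa3, of Mcpt8 and of Ms4a2 lay below all 3 WT arrays, with differences of -0.40, -0.37 ± 0.74 and -0.12 ± 0.38. These are gaps without overlap that did not pass the test. The share of all genes with such a gap is not given here, so the gaps cannot be called unusual. The median over all genes was -0.0952 in this comparison. Without the outlying array the SE fell to 0.14 for Cpa3 and 0.15 for Mcpt8, and the adjusted p was 0.108 and 0.147. Kit (0.13 ± 0.29) and Fcer1a (-0.07 ± 0.16) overlapped between the genotypes.

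In marrow with Dox the differences lay between -0.40 ± 0.38 for Ms4a2 (95% interval -1.23 to 0.42) and 0.07 ± 0.56 for Hdc (-1.13 to 1.27), all with an adjusted p of 1. In marrow without Dox they lay between -0.98 ± 0.83 for Mcpt8 (-2.78 to 0.81, adjusted p = 0.601) and 0.70 ± 0.39 for Cpa3 (-0.15 to 1.55, adjusted p = 0.546). Both ends rest on 1 array: without it Mcpt8 differed by 0.33 ± 0.18, Cpa3 by 0.11 ± 0.17, Hdc by 0.21 in place of -0.67, Ms4a2 by 0.32 in place of -0.10 and Kit by -0.31 in place of -0.67, all with an adjusted p of 1. The signs of Mcpt8, Hdc and Ms4a2 thus turned.

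Dox in marrow, which exposes the animal to IL-13 from the transgene, moved none of the 6 past the threshold in KO or in WT, where 0.0225% of all genes passed in each. In KO the differences ran from -0.30 ± 0.35 for Cpa3 to 1.24 ± 0.74 for Mcpt8 (adjusted p = 0.252). Kit had the smallest adjusted p of the 6, 0.152, with a difference of 0.83 ± 0.29 (95% interval 0.19 to 1.46, unadjusted p = 0.0144). In this KO comparison 6053 of all 22180 genes had an unadjusted p below 0.05, and of the 6 only Kit did. Without the outlying array Kit differed by 0.47 (adjusted p = 0.54), and the signs of 2 genes turned, Mcpt8 to -0.08 (adjusted p = 0.892) and Cpa3 to 0.29 (adjusted p = 0.545). Hdc then differed by 0.06 in place of 0.94, Ms4a2 by 0.15 in place of 0.57 and Fcer1a by -0.42 in place of -0.28.

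In WT the Dox differences ran from 0.06 ± 0.18 for Fcer1a to 0.88 ± 0.43 for Ms4a2 (95% interval -0.04 to 1.80), with Cpa3 at 0.70 ± 0.39 (-0.15 to 1.55), each with an adjusted p of 1. For Ms4a2 and for Cpa3 the 3 WT arrays with Dox lay above both WT arrays without it. How many of all genes did so is not given here. Only 2 arrays stand behind the WT group without Dox. The median over all genes was -0.133 in KO and -0.005 in WT.

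**Figure D3:**
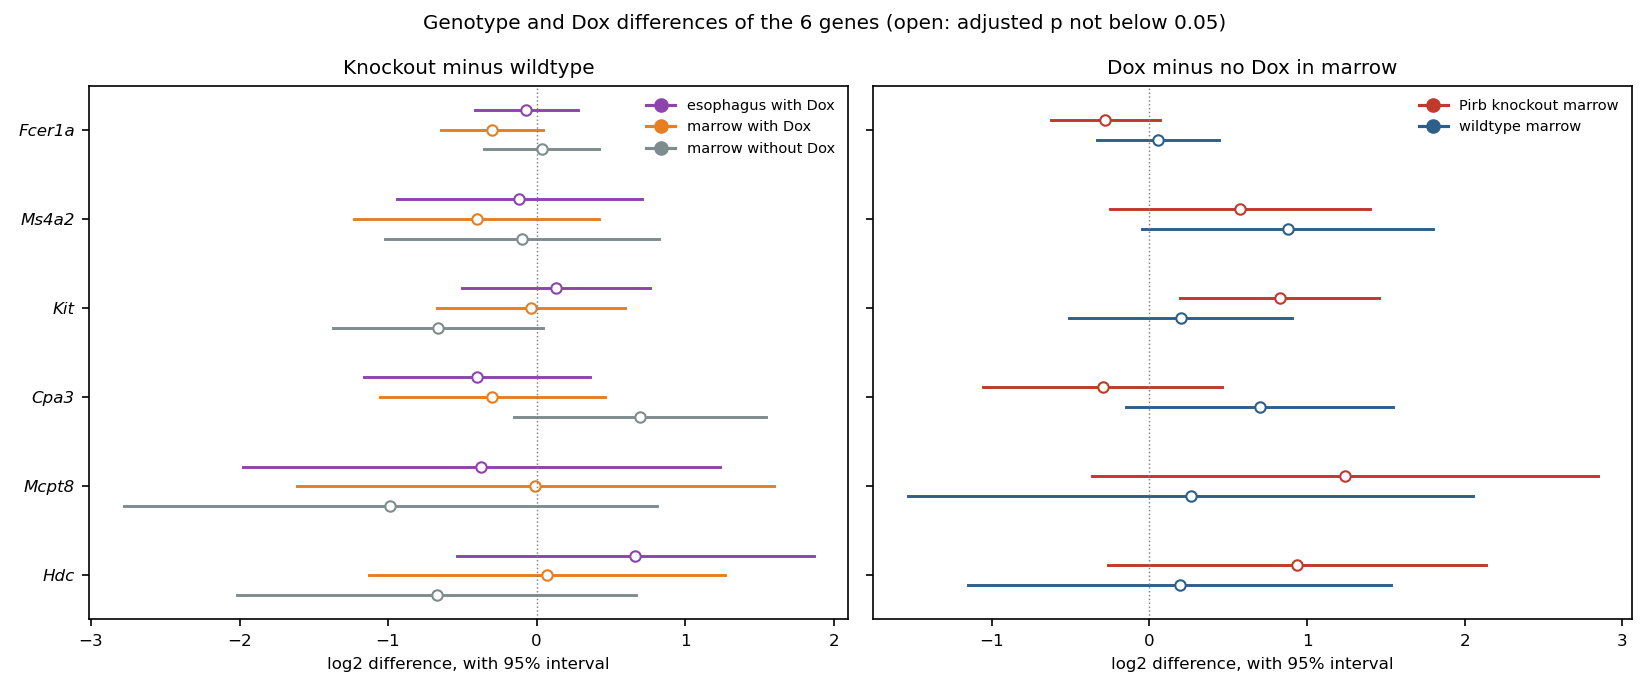
Left, KO minus WT differences in esophagus with Dox, marrow with Dox and marrow without Dox; right, Dox minus no Dox differences in KO and WT marrow (x axes, log2, with 95% interval) for the 6 genes (y axis). All points are open, since no adjusted p was below 0.05, and the intervals of Mcpt8 are the widest.

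The difference between the genotypes' tissue differences was tested directly. It ran from -0.36 ± 1.05 for Mcpt8 to 0.59 ± 0.79 for Hdc, with adjusted p-values from 0.962 to 0.991, and 0.00451% of all genes passed. For Cpa3 it was -0.10 ± 0.50 (95% interval -1.18 to 0.97) and for Kit 0.17 ± 0.41 (-0.73 to 1.06). The interaction of genotype with Dox in marrow ran from -1.0 ± 0.53 for Cpa3 to 0.98 ± 1.11 for Mcpt8, with adjusted p-values from 0.663 to 0.826, and 0% of all genes passed. With the outlying array left out these 2 were -0.41 and -0.34, and Hdc was at -0.14 in place of 0.75, Ms4a2 at -0.73 in place of -0.31, Kit at 0.27 in place of 0.63 and Fcer1a at -0.48 in place of -0.34, so that Mcpt8 and Hdc turned their sign. Over these 7 genotype, Dox and interaction comparisons, 0 of 42 tests on the 6 genes passed.

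No other gene of the mast cell and basophil lists passed as lower in the esophagus. Of all genes, 6.04% in KO and 7.06% in WT did so, and 4.5% and 8.11% passed as higher. Of 15 other mast cell genes, which include the tryptases, the chymases and the transcription factors Mitf and Gata2, none passed between the tissues in KO. Tpsg1, a tryptase held on the membrane, rose by 0.60 ± 0.10 in WT (adjusted p = 0.00189), the single pass of the list there, and was 0.28 ± 0.10 in KO (adjusted p = 0.0913). Mcpt2, a chymase of mucosal mast cells, differed by -0.25 ± 0.10 in KO (adjusted p = 0.132). The median of the list was 0.0718 in KO and 0.157 in WT, close to that of all genes. The mean of the list per array stayed between 0.00113 and 0.0896 in the KO esophagus, against -0.115 and 0.0116 in KO marrow with Dox. In WT it lay between 0.0355 and 0.208 in the esophagus, against -0.0502 and 0.0229 in marrow with Dox. Without the outlying array Tpsg1 and Gata2 passed as higher in KO. In WT 5 then passed as higher, the proteases Tpsab1, Tpsg1, Cma1, Mcpt4 and Mcpt9, by 0.21 to 0.60, and Slc18a2 passed as lower, by -0.80. Without that array 4175 of all 22180 genes passed between the tissues in KO and 8092 in WT. The tissue counts given below for the other lists without that array have this same background.

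Of 9 other basophil genes, 2 rose in KO and 3 in WT, and none fell. The share of all genes that passed as higher was 4.5% in KO and 8.11% in WT. Il4, the cytokine interleukin-4, which eosinophils make too, rose by 2.90 ± 0.36 in KO (adjusted p = 0.000193) and by 2.37 ± 0.36 in WT (adjusted p = 0.00113). Ifitm1, an interferon-inducible membrane protein, rose by 2.40 ± 0.28 in both genotypes (adjusted p = 0.000141 in KO and 0.000197 in WT). Itga2, the integrin alpha 2 chain, rose by 2.0 ± 0.58 in WT (adjusted p = 0.0367), a call that ended in 10 of 23 alternatives, among them leaving out any of the 3 WT marrow arrays with Dox. Prss34, a basophil protease like Mcpt8, differed by -0.50 ± 0.22 in KO (adjusted p = 0.184) and by -0.66 ± 0.22 in WT (adjusted p = 0.057). It was chosen after its values were seen. With the outlying array left out Prss34 passed as lower in both genotypes, and 4 of the 9 passed as higher: Il4, Ifitm1, Cd200r3 and Gata2 in KO, and Il4, Ifitm1, Cd200r3 and Itga2 in WT.

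Of 21 genes that carry the signal of the IgE receptor, 2 rose and 1 fell in KO, and 2 rose and 2 fell in WT. Among all genes 4.5% passed as higher and 6.04% as lower in KO, and 8.11% and 7.06% in WT. Such counts in 21 genes are near that background. Syk, the kinase that binds the gamma chain, rose by 1.67 ± 0.22 in KO and by 1.53 ± 0.22 in WT (adjusted p = 0.000316 and 0.000822). Vav1, an exchange factor for Rac, fell by 1.45 ± 0.31 in KO and fell by 1.62 ± 0.31 in WT (adjusted p = 0.00845 and 0.00557). Lcp2, the adaptor SLP-76, rose by 1.03 ± 0.19 in KO (adjusted p = 0.00331). The gamma chain itself, Fcer1g, which other Fc receptors share, differed by 0.47 ± 0.43 in KO (adjusted p = 0.572) and by 0.42 ± 0.43 in WT (adjusted p = 0.466). It too was chosen after its values were seen. In WT, Lat, the membrane adaptor, rose by 0.43 ± 0.12 and Pik3r1, a PI3-kinase subunit, fell by 1.38 ± 0.43, calls that ended in 7 and 16 of the 23 alternatives.

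Of 14 genes around Kit (its ligand Kitl, adaptors and negative regulators), 1 rose and none fell in KO, and 1 rose and 2 fell in WT. These were Sh2b3, an inhibitory adaptor, in KO (0.44 ± 0.13), and Sh2b2, Sos1 and the Pik3r1 already named in WT (0.43 ± 0.13, -1.14 ± 0.36 and -1.38 ± 0.43). Each of these 4 calls lay between an adjusted p of 0.041 and 0.0488 and ended in 13 or more of the 23 alternatives. Such counts in 14 genes are near the shares of all genes, 4.5% higher and 6.04% lower in KO, and 8.11% and 7.06% in WT. With that array left out 3 rose and 1 fell in KO, and 1 rose and 4 fell in WT, with Ptpn11, a phosphatase, among those lower in both. Of 8 genes that move, degrade or sense histamine, Hnmt, which inactivates histamine, fell by 1.61 ± 0.43 in KO (adjusted p = 0.0296), a call that ended when any of the 6 KO arrays compared was left out. None of the 8 passed in WT, where Slc18a2, the vesicle transporter of histamine, differed by -0.80 ± 0.27 (adjusted p = 0.061) and the receptor Hrh1 by 0.33 ± 0.11 (adjusted p = 0.0619). Without the outlying array 4 passed as higher in WT, the receptors Hrh1, Hrh2 and Hrh3 and the transporter Slc29a4, and Slc18a2 passed as lower.

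Of 11 genes of blood progenitors, the cells in which Kit is also on, 1 rose and 5 fell in KO, and 4 fell in WT. The share of all genes that passed as lower was 6.04% in KO and 7.06% in WT, and 4.5% and 8.11% passed as higher. Myb, a transcription factor of progenitors, fell by 3.49 ± 0.21 in KO and fell by 3.74 ± 0.21 in WT (adjusted p = 3.76e-07 and 2.33e-07). Erg fell by 1.82 ± 0.25 in KO and fell by 1.71 ± 0.25 in WT, and Sox4 fell by 1.31 ± 0.19 in KO and fell by 0.86 ± 0.19 in WT. Meis1 went the other way in KO, by 1.20 ± 0.22 (adjusted p = 0.00362). Cd34, a surface marker of progenitors, differed by -0.11 ± 0.20 in KO and -0.39 ± 0.20 in WT and did not pass. Cebpa fell by 0.68 ± 0.13 in KO and fell by 0.42 ± 0.13 in WT, where the call ended in 11 of the 23 alternatives. Lmo2 fell by 0.45 ± 0.13 in KO, a call that ended in 9 of the 23, and is named after its values were seen. The list's median was -0.111 in KO and -0.328 in WT. In the 7 genotype, Dox and interaction comparisons no gene of these 6 lists passed. With the outlying array left out 3 passed as higher in KO than in WT esophagus: Lcp2 by 0.77 (adjusted p = 0.0425), Meis1 by 1.11 (adjusted p = 0.0266) and Ptpn6, a phosphatase on both the IgE receptor and the Kit list, by 0.91 (adjusted p = 0.0348). In that fit 763 of all 22180 genes passed between these groups, so 3 of the 70 measured list genes is near the background.

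**Figure D4:**
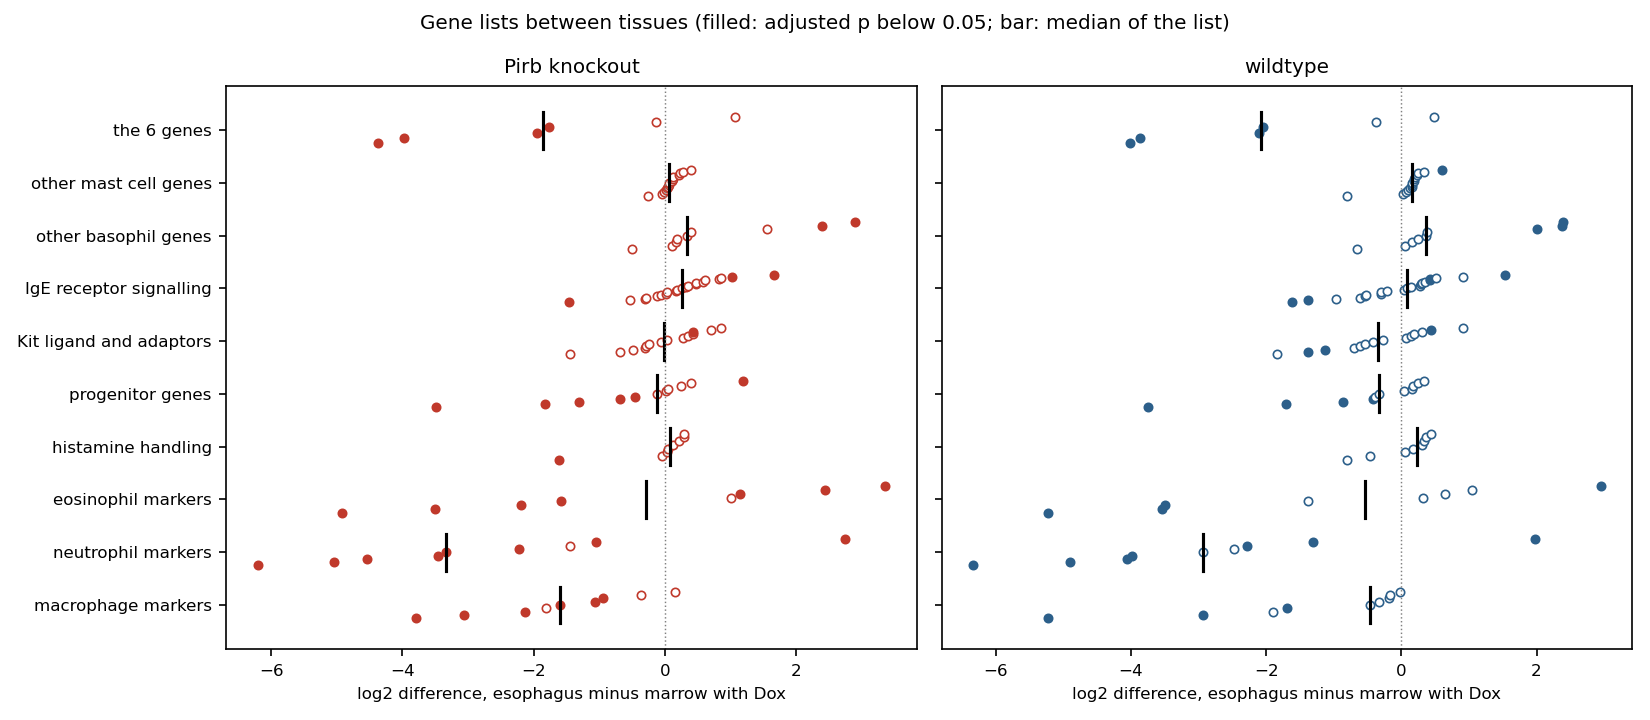
Difference between esophagus and marrow with Dox (x axis, log2, esophagus minus marrow) of each measured gene, by list (y axis), in KO (left) and WT (right); filled points passed at an adjusted p below 0.05 and the bar is the list's median. The other mast cell genes lie close to 0, whereas most neutrophil markers lie far to the left.

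Markers of other cells moved between the tissues as well. For these lists and the eosinophil genes below, the shares of all genes were 6.04% lower and 4.5% higher in KO. In WT they were 7.06% and 8.11%. Of 9 neutrophil markers, 7 were lower and 1 higher in the KO esophagus, and 6 were lower and 1 higher in the WT esophagus, with medians of -3.33 and -2.93. Camp, a neutrophil granule peptide, fell by 6.20 ± 0.94 in KO and fell by 6.33 ± 0.94 in WT, and Elane, neutrophil elastase, fell by 4.54 ± 0.13 in KO and fell by 3.98 ± 0.13 in WT. The 1 that rose was Retnlg, by 2.75 ± 0.50 in KO and 1.98 ± 0.50 in WT, where the call ended when either of 2 WT marrow arrays with Dox was left out, named after its values were seen. The mean of the 9 per array was -2.50 to -2.44 in the KO esophagus, against 0.01 to 0.40 in KO marrow with Dox, and -3.31 to -2.50 in the WT esophagus, against -0.06 to 0.42 in WT marrow with Dox. Of 9 monocyte and macrophage markers, 6 were lower in the KO esophagus and 3 in the WT esophagus, none was higher, and the medians were -1.60 and -0.46. Mertk, a receptor for dying cells, fell by 3.06 ± 0.37 in KO and fell by 2.94 ± 0.37 in WT, and Ly6c2, a monocyte surface protein, fell by 3.79 ± 0.98 in KO, a call that ended when any of 5 KO arrays was left out, and fell by 5.23 ± 0.98 in WT. The mean of these 9 per array was -1.12 to -0.83 in the KO esophagus, against 0.33 to 0.86 in KO marrow with Dox, and -0.90 to -0.51 in the WT esophagus, against 0.66 to 0.81 in WT marrow with Dox. Without the outlying array 7 passed as lower in KO and 4 in WT.

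Of 8 eosinophil genes measured, 3 were higher and 4 lower in the KO esophagus, and 1 was higher and 3 lower in the WT esophagus. The lower ones encode granule proteins: Prg3 fell by 4.91 ± 0.52 in KO and fell by 5.22 ± 0.52 in WT, Epx fell by 3.50 ± 0.41 in both, and Prg2 fell by 2.20 ± 0.35 in KO and fell by 3.53 ± 0.35 in WT. Ear6, an eosinophil ribonuclease, fell by 1.58 ± 0.47 in KO (adjusted p = 0.0487), a call that ended in 14 of 23 alternatives, and differed by -1.39 ± 0.47 in WT (adjusted p = 0.0609), where it passed without the outlying array. Prg2 in KO, Ear6 and Siglecf between tissues are named after their values were seen. Alox15, an eosinophil lipoxygenase, rose by 3.36 ± 0.59 in KO and 2.95 ± 0.59 in WT, where the adjusted p was 0.0501 with quantile normalization. Il5ra, the alpha chain of the interleukin-5 receptor, rose by 2.44 ± 0.50 in KO (adjusted p = 0.00641), a call that ended with quantile normalization, and differed by 1.05 ± 0.50 in WT (adjusted p = 0.147). Ccr3 and Siglecf, which encode proteins used in the sort, differed by 1.02 ± 0.56 and 1.14 ± 0.16 in KO, where Siglecf passed (adjusted p = 0.000479), and by 0.64 ± 0.56 and 0.32 ± 0.16 in WT. Siglecf was also higher in KO than in WT esophagus, by 0.95 ± 0.16 (adjusted p = 0.0259), a call that ended in 7 of 23 alternatives. Of the measured markers of T and NK cells, B cells, dendritic cells, epithelium, platelets and red cells, Cd79b passed as lower in KO, Cd209a, Krt13 and Ppbp as higher in KO, and Cd209a as higher in WT. No marker list shows from centred values whether its cells were present, so the labelled cell type could not be checked by level. The part of these cells in the 4 differences was not tested.

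The 3 genes most like each of the 6 were found by Pearson's r over the 17 arrays, as a description with no test. Such an r rests mainly on the gap between 6 esophageal and 11 marrow arrays and on the outlying array, so r is also given over the 10 other marrow arrays.

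Mcpt8 was nearest to Tpx2, a spindle protein (r = 0.992), Shcbp1 (0.992) and Camp (0.991). Over the 10 marrow arrays these were -0.184, 0.0512 and -0.0428. Cpa3 was nearest to Ccnb2, a mitotic cyclin (0.98), Elane (0.975) and Htra2 (0.968), all above 0 in the outlying array like Cpa3 itself, and over the 10 marrow arrays these were -0.00728, -0.353 and -0.179. Mcpt8 and Cpa3 themselves correlated at 0.792 over 17 arrays, 0.986 over the 16 without the outlying array, and -0.0341 over the 10 other marrow arrays.

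Kit, Ms4a2 and Fcer1a kept more of their likeness within the marrow than Mcpt8 and Cpa3 did. The genes nearest to Kit were Blm, a DNA helicase (r = 0.978), Tma16 (0.975) and Mcm6, a subunit of the replicative helicase (0.975). Over the 10 marrow arrays r was 0.866, 0.721 and 0.742. Ms4a2 was nearest to Zfp35 (0.935), Pecr (0.93) and Ndufaf1 (0.929), with 0.752, 0.641 and 0.821 over the 10. Fcer1a was nearest to Stk39 (0.851), Ctla2b (0.837) and Agtrap (0.804), with 0.741, 0.734 and 0.662. Hdc was nearest to Npepps (0.965), Mapkapk2 (0.962) and Rlim (0.961), all lowest in the outlying array, with 0.213, 0.704 and 0.447 over the 10.

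**Figure D5:**
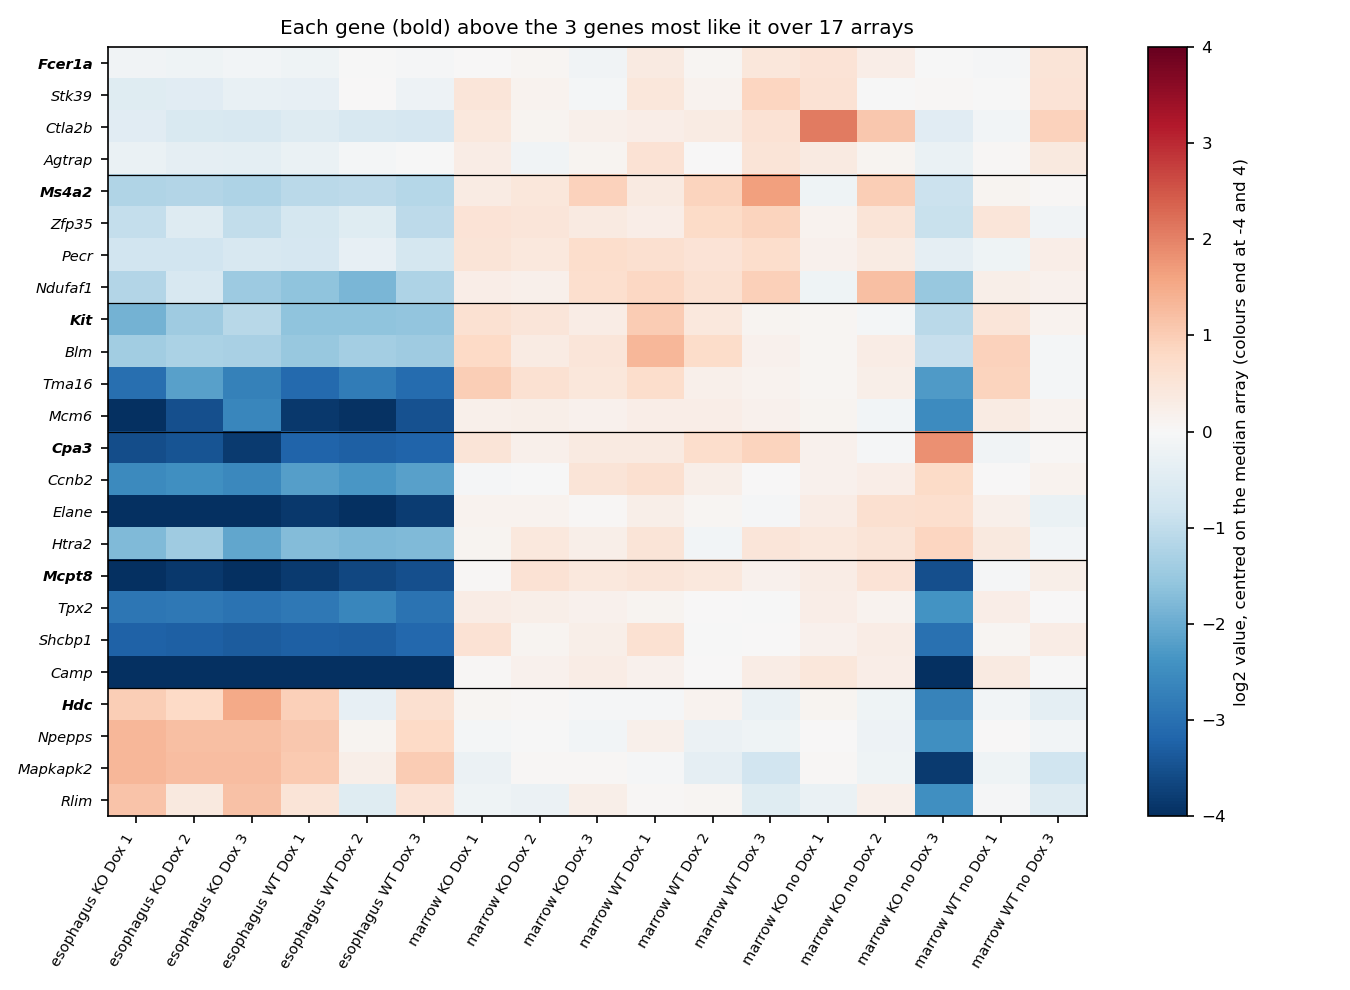
Centred log2 values (colour, ends at -4 and 4) of each of the 6 genes (bold) and the 3 genes most like it (rows) in 17 arrays (columns). The esophageal arrays on the left are blue for Ms4a2, Kit, Cpa3 and Mcpt8 and their neighbours and red in most arrays for Hdc and its neighbours; the KO array 3 without Dox breaks the marrow pattern.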

How the data were processed

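The 17 Affymetrix arrays gave log2 values for 33793 probe sets, which the authors deposited already centred on the median of 18 arrays (in 97.08% of probe sets a pair of neighbouring values was equal and opposite within 2e-05); 1 array is not analysed here. Per the labels' protocols, RNA was amplified and biotin-labelled, and the submitters' processing notes name Affymetrix Expression Console without a version. Neither the log base nor a normalization step is given in the sources used here. Centred values carry no brightness, so no filter on dim probes was possible and the number of arrays limits the precision.

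Probe sets with 1 gene symbol (23521) gave 22180 genes, as the mean of a gene's probe sets. For 23328 of these probe sets the current symbol was looked up through the Entrez identifier, whether or not it differed from the platform's. A model with 6 group means was fitted with limma 3.58.1 (R 4.3.3) to all arrays, with 9 contrasts, moderated variances, two-sided tests and Benjamini-Hochberg adjustment over all genes, threshold 0.05. The fit was tested on simulated data with known differences. There each gene had the same spread in every array, so that test does not cover an outlying array. Errors beside differences are SEs.

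The 6 genes and the gene lists were chosen with earlier results of these data known. Named genes are the 6, the 3 with the highest Pearson r with each, and of each list those that passed (at most 4 by size, otherwise the 2 with the smallest p); any other is said to be named after its values were seen. Of the genes on the 6 lists, 70 of 75 were measured; the others are not reported here. The 23 alternatives were quantile normalization, median centring, array weights, a fit of the compared groups, the probe set with the lowest number, a replicate block and leaving out each of the 17 arrays. Correlations without the outlying array were added after seeing the data.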

Additional observations from a re-analysis of the deposited data

How the results depend on the processing

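Of 54 differences of the 6 genes, 33 kept their direction and their side of the threshold under all 23 alternatives, including the tissue differences of Ms4a2, Kit, Cpa3 and Mcpt8 in both genotypes. None lost a call, 1 gained one (Hdc in KO, given above) and 20 turned their sign in at least 1 alternative, none of which passed with either sign. The cause was not tested. With quantile normalization the turned values were -0.22 for Kit in KO minus WT esophagus, 0.14 for Ms4a2 in KO minus WT marrow without Dox and -0.10 for Kit in the genotype by tissue interaction. With median centring they were 0.014 for Fcer1a in KO minus WT esophagus, 0.010 for Mcpt8 in KO minus WT marrow with Dox and -0.043 for Fcer1a without Dox. With array weights, KO minus WT marrow without Dox gave 0.70 for Ms4a2, 0.35 for Mcpt8 and 0.084 for Hdc. Dox in KO marrow then gave -0.22 for Ms4a2, 0.34 for Cpa3 and -0.10 for Mcpt8, and the genotype by Dox interaction -0.40 for Mcpt8 and -0.052 for Hdc. With 1 array left out at a time, KO minus WT in the esophagus ranged from -0.052 to 0.34 for Kit. In marrow with Dox it ranged from -0.25 to 0.21 for Kit, from -0.12 to 0.15 for Mcpt8 and from -0.032 to 0.17 for Hdc. Without Dox the ranges were -0.26 to 0.33 for Fcer1a, -0.60 to 0.32 for Ms4a2, -1.70 to 0.33 for Mcpt8 and -1.18 to 0.21 for Hdc. The Dox difference ranged from -0.24 to 0.35 for Fcer1a and from -0.052 to 0.41 for Kit in WT, and from -0.64 to 0.29 for Cpa3 and from -0.077 to 1.95 for Mcpt8 in KO. Of the other genes named, Cd34 between KO tissues turned to 0.057 with 1 KO esophageal array left out. The genotype by tissue interaction ranged from -0.051 to 0.59 for Ms4a2, from -0.083 to 0.37 for Kit and from -0.22 to 0.042 for Cpa3. The genotype by Dox interaction ranged from -0.73 to 0.20 for Ms4a2, from -0.34 to 1.69 for Mcpt8 and from -0.14 to 1.25 for Hdc. The count of all genes passing moved more than any call of the 6: between WT tissues it was 3366, against 2176 with quantile normalization, 8210 with array weights and 1335 to 8092 with 1 array left out. Between KO tissues it was 2336, against 6117 with array weights, 4451 with only the compared groups and 1538 to 4175 with 1 array left out. For KO against WT esophagus it was 77, against 6 with quantile normalization, 8 with only the compared groups, 858 with array weights and 763 without the outlying array. Same-numbered arrays deviated together with r from -0.09 to 0.20. In no comparison with 3 pairs were all above 0.1, and at most 3 of 6 arrays there correlated best with their own number. In the comparisons with 2 pairs both were above 0.1. They were 0.176 and 0.203 for KO minus WT marrow without Dox, and 0.141 and 0.185 for Dox in WT marrow. With 2 pairs it cannot be told whether the numbers pair those arrays. With the replicate block 4 of the 6 genes passed between tissues in each genotype, as without it, among 3638 genes in WT and 2354 in KO; for KO against WT esophagus it called 47 genes. The low counts of arrays, 2 or 3 a group, and the unknown brightness limit what the values that did not pass can show.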

Other observations

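Between themselves the 4 genes that were lower in the esophagus correlated over the 10 marrow arrays without the outlying one at r = 0.625 for Ms4a2 and Cpa3, 0.197 for Ms4a2 and Mcpt8, 0.146 for Kit and Cpa3, 0.00113 for Kit and Mcpt8, and -0.273 for Ms4a2 and Kit. Over the 16 arrays with both tissues the same 5 pairs stood at 0.923, 0.898, 0.943, 0.95 and 0.822; these arrays share the gap between the tissues. In the array that stood apart, the 6 genes split: Mcpt8 and Hdc were at -3.52 and -2.68, Kit and Ms4a2 at -1.07 and -0.86, Fcer1a at -0.02 and Cpa3 at 1.82. These are values of 1 array, with no test.

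With that array left out, the 3 genes nearest to Cpa3 were Prg3, an eosinophil granule protein (r = 0.991), Vcam1 (0.991) and Ms4a3 (0.987), and those nearest to Mcpt8 were Fcnb (0.995), Elane (0.994) and Ngp (0.994). The nearest to Kit were Muc13 (0.977), Blm (0.977) and Tma16 (0.975), so 2 of its 3 stayed. The same held for Ms4a2, with Zfp35 and Ndufaf1, and for Fcer1a, with Stk39 and Ctla2b.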
